A study of Drosophila melanogaster with 12 samples.

Results

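The genes described here are the gustatory receptor (*Gr*) genes of *Drosophila melanogaster* other than the sugar receptors. They were chosen by name from the Ensembl BDGP6 annotation: *Gr*, digits and a lower-case letter, leaving out *Gr5a*, *Gr61a*, *Gr64a* to *Gr64f* and *Gr43a*. The rule gave 51 genes, and all 51 were among the 18119 genes tested. *Pcl* binding at these genes was read from targeted DamID (TaDa), in which a DNA adenine methyltransferase (Dam) fused to Pcl marks the GATC sequences it comes near. The marked fragments are cut out and sequenced.

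*Gr5a;tubulinGAL80ts>UAS-LT3-Dam::Pcl* males and females were kept on a sugar diet (30% sucrose, 3 samples) or a control diet (5% sucrose, 3 samples). The deposited values are log2 ratios to *Gr5a;tubulinGAL80ts>UAS-LT3-Dam* flies, which express Dam alone. Each replicate pooled 300 heads. Flies were collected 2 days after eclosion, and per the labels the diet ran from day 5 to day 6 at 20°C before 1 day at 29°C released the temperature-sensitive GAL80 and so switched the transgene on. The sample titles give 4 days, and the methods describe a longer diet and a slightly lower induction temperature. Expression rests on the *Gr5a* driver, which marks sweet taste neurons, so the values describe chromatin of those cells within whole heads. The files hold ratios of DNA and no RNA, so the cell type could not be checked by its expressed markers. Fewer neurons bound and less binding per neuron cannot be told apart in such pooled material.

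Gustatory receptors are membrane proteins of taste neurons, and each neuron expresses a small set of them. Bitter neurons use a different set from sweet neurons, and some family members work outside taste: *Gr21a* and *Gr63a* together form the carbon dioxide receptor of antennal neurons. Pcl is the accessory subunit that defines PRC2.1, a form of the Polycomb Repressive Complex 2, which methylates histone H3 on lysine 27 and is best known for keeping the Hox genes silent. A sweet neuron thus carries many receptor genes that it is not known to use.

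In TaDa the unit of measurement is the stretch between neighbouring GATC sites, so such stretches are shown first. They are those before the carbon dioxide receptor genes *Gr21a* and *Gr63a*, before *Gr33a*, the most bound core bitter receptor, and before *Gr98d*, which had the largest fall, with 1 whole fragment each at *Gr68a* and *Gr39b*. Sequences are RefSeq dm6 (GCF_000001215.4), given 5′ to 3′ on the strand of the gene, and capitals mark GATC, GAGAG (the core recognised by GAGA factor) and GCCAT (the core recognised by Pho), each on either strand. The sequences before *Gr21a*, *Gr63a* and *Gr33a* are the 250 bases before the gene, and that before *Gr98d* is shorter because it stops at the last exon of *Gr98c*.
The bases before *Gr21a* (chr2L:780232-780481, + strand) had a GC content of 43.6% and lay inside a GATC fragment of 792 bp (chr2L:779843-780634) that reached into its 5′ UTR.
Gr21a: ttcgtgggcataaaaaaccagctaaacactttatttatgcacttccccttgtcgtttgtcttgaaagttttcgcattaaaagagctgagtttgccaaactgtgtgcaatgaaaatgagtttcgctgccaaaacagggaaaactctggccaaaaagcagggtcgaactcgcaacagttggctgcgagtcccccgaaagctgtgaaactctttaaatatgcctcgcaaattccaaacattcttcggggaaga
That fragment read 1.62, 1.73 and 1.12 in the sugar samples, against -0.36, -0.63 and -0.62 in the control samples.
The bases before *Gr63a* (chr3L:3896604-3896853, - strand), with 50% GC, lay in a fragment of 575 bp.
Gr63a: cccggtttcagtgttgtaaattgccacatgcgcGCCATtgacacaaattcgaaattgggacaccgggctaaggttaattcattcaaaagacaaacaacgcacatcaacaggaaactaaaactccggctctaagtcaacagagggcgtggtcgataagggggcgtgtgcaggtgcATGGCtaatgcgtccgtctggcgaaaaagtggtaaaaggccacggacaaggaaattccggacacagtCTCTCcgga
It read 0.25, 1.16 and 0.19 in the sugar samples, against 0.21, -0.36 and 0.09 in the control samples, so the diets overlapped there.
The bases before *Gr33a* (chr2L:12137758-12138007, + strand), with 40.4% GC, lay in a fragment of 964 bp.
Gr33a: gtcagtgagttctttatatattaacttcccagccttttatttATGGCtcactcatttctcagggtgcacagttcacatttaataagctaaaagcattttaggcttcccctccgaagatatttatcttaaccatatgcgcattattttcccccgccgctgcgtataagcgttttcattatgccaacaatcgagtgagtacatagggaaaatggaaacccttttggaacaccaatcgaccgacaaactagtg
It read -0.37, 0.72 and -0.19 in the sugar samples, against 1.42, 1.46 and 1.24 in the control samples.
The bases between *Gr98c* and *Gr98d* (chr3R:27545837-27546051, + strand), with 29.3% GC, hold 2 GATC sites, and the longest fragment that reaches into them before the gene (447 bp) also covers the end of the *Gr98c* coding sequence.
Gr98d: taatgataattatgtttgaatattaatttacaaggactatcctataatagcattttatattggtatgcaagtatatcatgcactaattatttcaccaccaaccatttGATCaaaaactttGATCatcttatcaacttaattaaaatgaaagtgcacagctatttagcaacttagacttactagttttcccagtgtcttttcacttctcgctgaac
It read -0.90, -0.73 and -0.94 in the sugar samples, against 0.97, 0.40 and 0.03 in the control samples.
As whole fragments with both cut sites, a coding fragment of *Gr68a* (chr3L:11751538-11751814, + strand) and an intergenic one downstream of *Gr39b* (chr2L:21367674-21367767, - strand) are shown, chosen after their values were seen.
Gr68a: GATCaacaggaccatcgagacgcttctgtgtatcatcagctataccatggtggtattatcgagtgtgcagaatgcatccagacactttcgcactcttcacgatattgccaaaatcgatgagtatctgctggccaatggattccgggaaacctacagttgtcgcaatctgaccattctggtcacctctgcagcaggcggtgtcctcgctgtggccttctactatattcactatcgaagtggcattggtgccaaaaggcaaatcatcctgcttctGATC
Gr39b: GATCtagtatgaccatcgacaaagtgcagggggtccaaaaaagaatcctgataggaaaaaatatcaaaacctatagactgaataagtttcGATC
The *Gr68a* fragment read 0.36, 0.37 and 0.09 in the sugar samples, against -0.22, -0.03 and -0.15 in the control samples. The *Gr39b* fragment read -0.37, -0.13 and -0.12 in the sugar samples, against 0.65, 0.69 and 0.02 in the control samples.

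Among the 250 bases before the start of each of the 51 genes, GAGAG stood on either strand in 10 (19.6%, against 25.7% of 13945 protein-coding genes), GCCAT in 20 (39.2% against 35.7%) and GATC in 12 (23.5% against 38.2%). A GAGAG can share its last base with a GATC, and its reverse complement can share its first base with one. *Gr21a* held none of the 3, *Gr63a* held GAGAG and GCCAT, and *Gr33a* held GCCAT. These are counts of letters and say nothing of factors bound.

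Binding was read for each gene as the length-weighted mean log2(*Dam::Pcl/Dam*) over the gene and 1 kb on each side. A value of 0 means as many scaled reads with Dam::Pcl as with Dam alone, and 1 means 2 times as many. These windows held between 3 fragments (*Gr89a*) and 33 (*Gr10a*), with a median of 12. Files held the same 383654 fragments with no read counts, so depth is unknown and the number of samples limits the precision. Samples of the same diet correlated at r = 0.961 to 0.984 over genes and samples of different diets at 0.723 to 0.864. Between 11.8% and 12.5% of fragments stood at exactly 0. A fragment at 0 in 1 sample was below 0 in 0% of cases in the samples of its own diet, but in 8.99% to 15.7% of cases in those of the other diet, and whether samples of a diet share a Dam-only library was not tested. If samples of a diet share a Dam-only library, SEs and p-values leave out the spread between such libraries, and diet and library cannot be told apart. The labels call the replicates biological without saying more, so p-values measure the spread between these samples.

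The *Gr* genes lay near the middle of the genome in *Pcl* binding on both diets. Their median was -0.04 on the sugar diet, with a range of -0.63 (*Gr98d*) to 1.03 (*Gr9a*), and 0.17 on the control diet, with a range of -0.47 (*Gr32a*) to 0.95 (*Gr9a*). All genes tested had medians of -0.03 on the sugar diet and 0.04 on the control diet. For 42 of the 51 genes the mean was within 0.5 of 0 on both diets. The mean was above 0 for 24 genes on the sugar diet and for 35 on the control diet, and it reached 1 at 1 gene (*Gr9a*) on the sugar diet and at 0 on the control diet. By comparison, the Hox genes *Ubx* and *Abd-B* read 2.99 and 4.08 on the sugar diet, and 2.70 and 3.91 on the control diet. No *Gr* gene stood above the 95th percentile of all genes on either diet, which was 1.40 on the control diet.

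**Figure D1:**
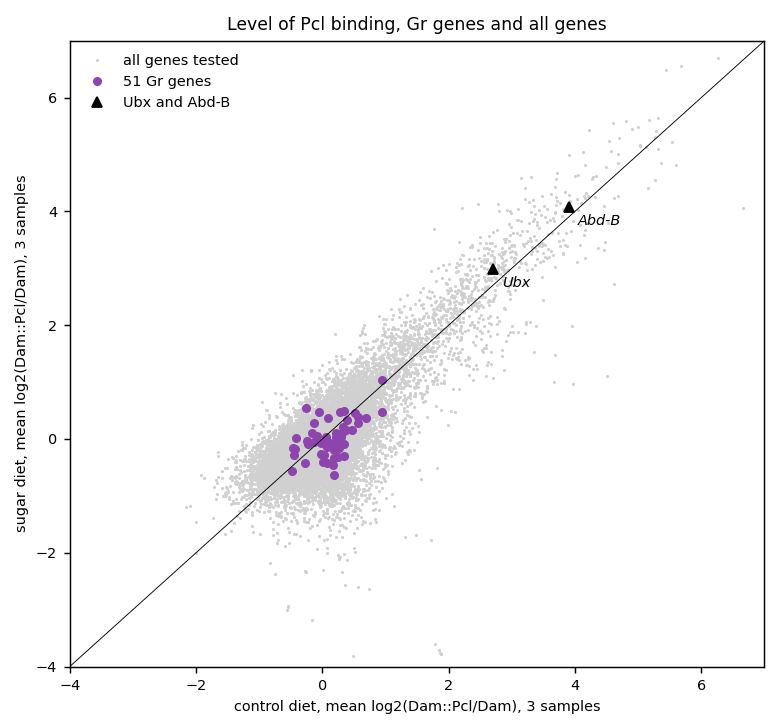
Mean log2(*Dam::Pcl/Dam*) per gene over 3 samples on the control diet (x axis) and on the sugar diet (y axis) for all 18119 genes (grey), the 51 *Gr* genes (purple) and *Ubx* and *Abd-B* (black), with the line of equality. The *Gr* genes lie between -0.63 and 1.03 on both axes, far below *Ubx* and *Abd-B*.

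Per sample, the median over the 51 genes was -0.05, 0.07 and -0.03 in the sugar samples, against 0.20, 0.20 and 0.09 in the control samples. Sugar replicate 2 was the highest sample of its diet at 31 of the 51 genes. The median SD within a diet was 0.12 on the sugar diet and 0.08 on the control diet.

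Peaks of *Pcl* binding, called in each sample and kept where all 3 replicates of a diet shared them, numbered 1522 on the sugar diet and 1505 on the control diet. Of the 51 *Gr* genes, 1 (*Gr10a*) lay at a common peak within its window on each diet, against 5.03% of all genes on the sugar diet and 5.68% on the control diet. That peak began 0.899 kb upstream of *Gr10a*, which is expressed in an antennal olfactory neuron together with the overlapping gene *Or10a*, so no *Gr* gene body held a common peak. The median distance to the nearest common peak was 83.4 kb on the sugar diet and 57.2 kb on the control diet. *Gr63a* was next nearest, with a peak 1.54 kb away on the sugar diet and 1.70 kb away on the control diet.

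The *Gr* genes nevertheless differed between the diets about as often as other genes did, and more of them were lower than higher on sugar. In the limma fit across all genes, 26 of 51 passed an adjusted p of 0.05, against 48.0% of all genes. Of these, 7 were higher on the sugar diet (13.7%, against 22.3% of all genes) and 19 were lower (37.3%, against 25.7%). The median difference, sugar minus control, was -0.14 over the 51 genes and -0.01 over all genes, with 16 positive and 35 negative values. The 3 samples of each diet did not overlap at 30 of the 51 genes (58.8%, against 59.9% of all genes), and all 26 called genes were among them. With 1 sample left out the number of called genes dropped below 26 each time: it was 16 without sugar replicate 1, 15 without sugar replicate 3, 14 without control replicate 1 and 15 without control replicate 2, when 40.6%, 41.2%, 36.6% and 33.6% of all genes were called in that order.

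**Figure D2:**
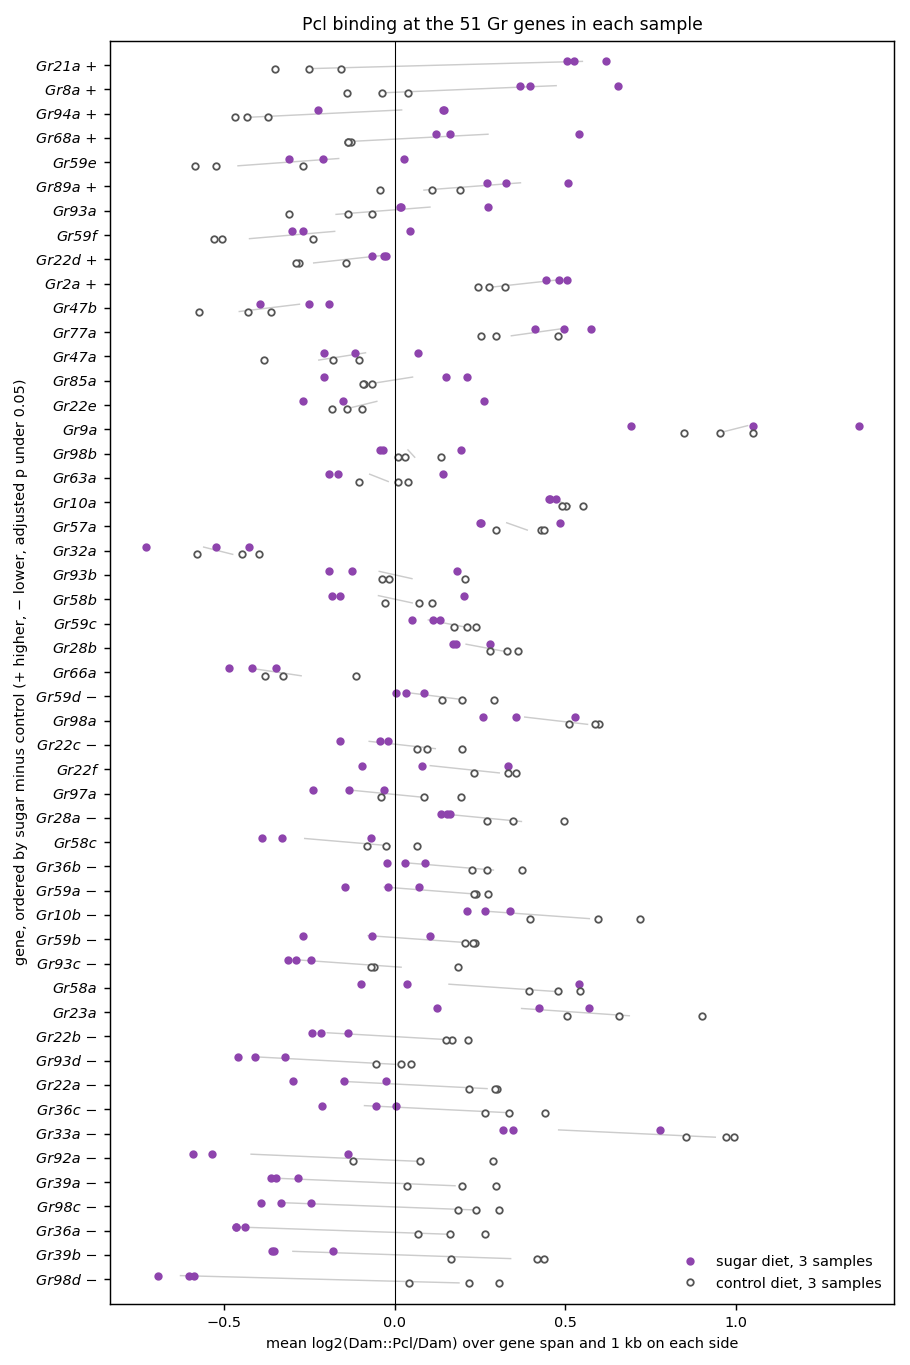
Mean log2(*Dam::Pcl/Dam*) over each of the 51 *Gr* genes and 1 kb on each side (x axis) in the 3 sugar samples (filled, upper row of each gene) and the 3 control samples (open, lower row), ordered by the difference, with a line joining the means. Plus and minus signs mark the 7 genes higher and the 19 lower on the sugar diet, and *Gr21a* at the top and *Gr98d* at the bottom have the widest gaps between diets.

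The core bitter receptors, *Gr32a*, *Gr33a*, *Gr39a*, *Gr66a* and *Gr89a*, are shared by most bitter neurons of the labellum. Their calls were mixed: 1 rose on the sugar diet (20%, against 22.3% of all genes), 2 fell (40%, against 25.7%) and 2 did not pass the test. *Gr33a*, a receptor needed for many aversive compounds, was the most bound of the 5. It read 0.35, 0.78 and 0.32 in the sugar samples, against 0.99, 0.97 and 0.85 in the control samples. The control samples all lay above the sugar samples, and the difference was -0.46 (SE 0.14, limma adjusted p = 0.037). Its 12138008-12140392 span on 2L held 5 fragments in the window, and the call was kept without sugar replicate 2 (adjusted p = 0.008) but lost without any other single sample (adjusted p = 0.064 to 0.105).

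*Gr39a*, which makes several receptor transcripts from alternative first exons, was below 0 in every sugar sample and above 0 in every control sample. It read -0.35, -0.28 and -0.36 in the sugar samples, against 0.30, 0.20 and 0.04 in the control samples (difference -0.51, SE 0.08, adjusted p = 0.005). *Gr89a*, expressed across bitter neurons, was higher on sugar by 0.28 (SE 0.09, adjusted p = 0.048), with 0.33, 0.51 and 0.27 in the sugar samples, against 0.19, -0.04 and 0.11 in the control samples. That call rested on 3 fragments and was lost without any single sample (adjusted p = 0.053 to 0.128).

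The remaining core receptors were among the least bound *Gr* genes. *Gr66a*, a caffeine receptor subunit and the usual marker of bitter neurons, read -0.49, -0.42 and -0.35 in the sugar samples, against -0.38, -0.11 and -0.33 in the control samples. The diets overlapped, and the difference was -0.14 (SE 0.08, adjusted p = 0.209). *Gr32a*, which serves bitter taste and the detection of male pheromone, read -0.43, -0.52 and -0.73 in the sugar samples, against -0.45, -0.40 and -0.58 in the control samples, with a difference of -0.08 (SE 0.09, adjusted p = 0.493). It had the lowest control level of all 51 genes.

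A further 6 bitter receptors are found in subsets of bitter neurons (*Gr8a*, *Gr22e*, *Gr47a*, *Gr59c*, *Gr93a* and *Gr98b*). Of these, 1 rose (16.7%, against 22.3% of all genes), 0 fell (against 25.7% of all genes) and 5 did not pass the test. The one that rose was *Gr8a*, a receptor for the plant toxin L-canavanine. It read 0.66, 0.40 and 0.37 in the sugar samples, against 0.04, -0.14 and -0.04 in the control samples, with no overlap (difference 0.52, SE 0.10, adjusted p = 0.009). *Gr98b*, its partner in L-canavanine detection, differed by -0.02 (SE 0.08, adjusted p = 0.866), and its samples overlapped. *Gr93a*, a caffeine receptor subunit, differed by 0.28 without passing the test (SE 0.10, adjusted p = 0.070), although its sugar samples (0.02, 0.27 and 0.02) all lay above its control samples (-0.14, -0.31 and -0.07).

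The carbon dioxide receptor genes gave the widest gap within a functional pair. *Gr21a* had the largest rise of all 51 genes, with 0.53, 0.62 and 0.51 in the sugar samples, against -0.16, -0.35 and -0.25 in the control samples. The diets were far apart relative to their spread (difference 0.80, SE 0.07, adjusted p = 0.002), and the call held without any single sample (adjusted p = 0.005 to 0.013). *Gr63a* read -0.19, 0.14 and -0.17 in the sugar samples, against 0.04, 0.01 and -0.10 in the control samples, with overlap (difference -0.05, SE 0.10, adjusted p = 0.697). Within each sample, *Gr21a* minus *Gr63a* averaged 0.62 ± 0.13 on the sugar diet and -0.23 ± 0.11 on the control diet (SD, n = 3 each). In an exact two-sided permutation test of that gap p was 0.1, the smallest that 3 against 3 samples allow, and 0.1 after adjustment over the 5 gene pairs tested.

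The 2 sides of *Gr63a* had opposite differences, but both cover neighbouring genes, so the signal there cannot be assigned to *Gr63a*. The widest upstream gap was in a fragment with coding sequence of *Lamtor4* and *Ccz1* (-0.19 on the sugar diet, -1.69 on the control diet). The downstream value came from 1 fragment of 1179 bp with coding sequence of both *Fie* and *Gr63a*. In the 1 kb upstream *Gr63a* read 0.13, 0.42 and -0.19 in the sugar samples, against -0.68, -0.69 and -0.56 in the control samples (difference 0.77, SE 0.16, adjusted p = 0.015). In the 1 kb downstream it read -0.84, -0.68 and -0.63 in the sugar samples, against 0.42, 0.63 and -0.03 in the control samples, a part with too few fragments to be tested. Over the gene itself it averaged 0.21 ± 0.24 on the sugar diet and 0.15 ± 0.10 on the control diet (SD, n = 3 each). *Gr21a* was higher upstream and over the gene. Upstream it read 1.30, 1.31 and 1.29 in the sugar samples, against -0.23, -0.31 and -0.34 in the control samples (difference 1.59, SE 0.05, adjusted p = 0.002). Over the gene itself the difference was 0.83 (SE 0.10, adjusted p = 0.003). In the 1 kb downstream it averaged -0.07 on the sugar diet and -0.02 on the control diet. The upstream and downstream windows were added after the data had been seen. The direction at *Gr63a* turned with the window: within 1 kb of its start the difference was 0.50 (adjusted p = 0.042), and with 5 kb on each side of the gene it was 0.27 (adjusted p = 0.012).

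**Figure D3:**
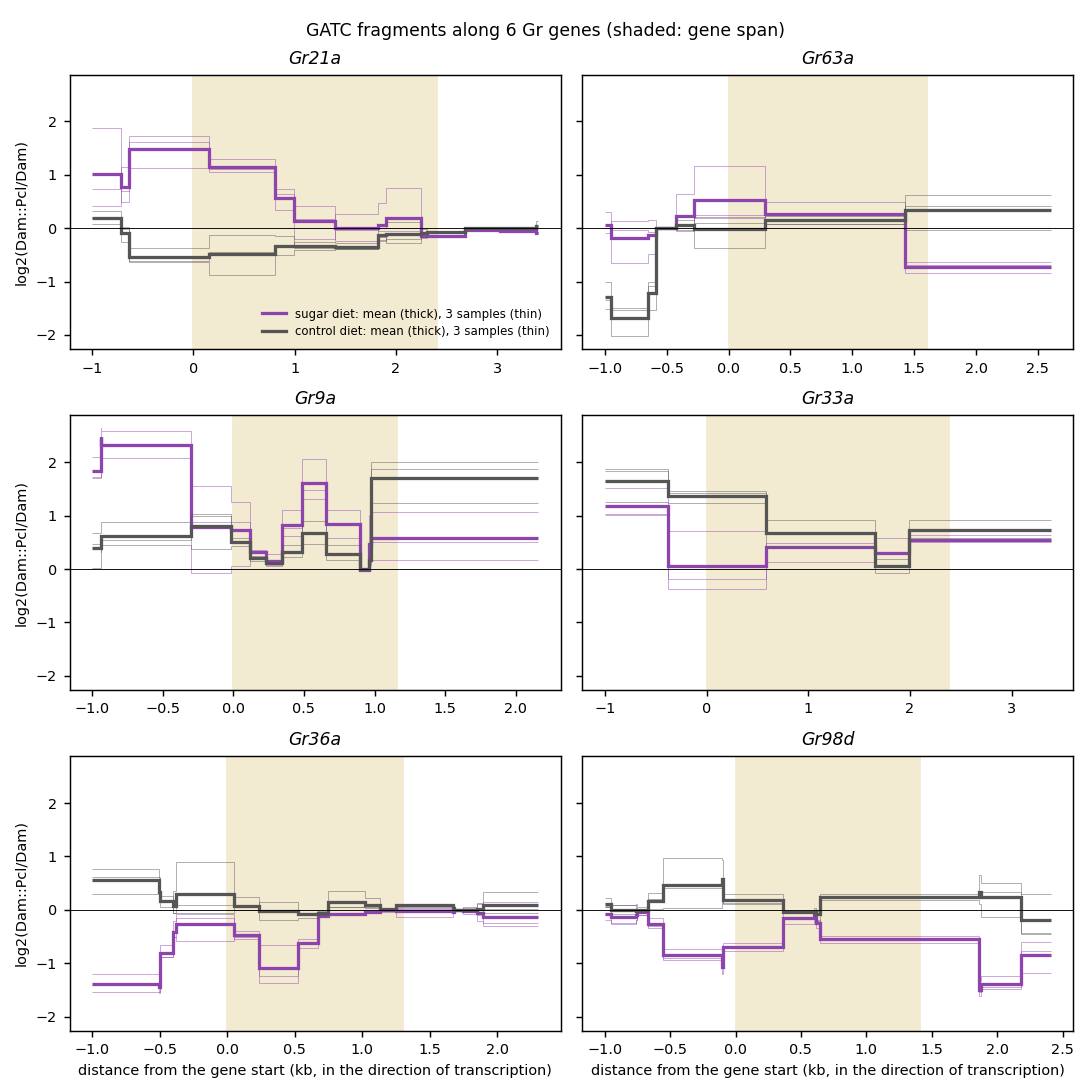
log2(*Dam::Pcl/Dam*) of each GATC fragment (y axis) by distance from the start of 6 *Gr* genes in the direction of transcription (x axis, kb), for the sugar diet (purple) and the control diet (dark grey), with the mean thick, the 3 samples thin and the gene span shaded. At *Gr21a* the sugar samples are above the control samples in every fragment from 1 kb before the start to 1.82 kb after it, and at *Gr36a* and *Gr98d* the largest gaps have the control samples above.

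Sides of the window differed at other genes too. Over the 51 genes, 23 of the 45 upstream windows with enough fragments passed the test, against 44.9% for all genes. Of these, 7 were higher (18.0% for all genes) and 16 lower (27.0%). Of the 51 gene spans 20 passed (47.2% for all genes), 6 higher (26.6%) and 14 lower (20.7%). Of the 43 downstream windows 17 passed (46.8% for all genes), 1 higher (18.0%) and 16 lower (28.7%). The single downstream rise was at *Gr22d* (0.81, SE 0.18, adjusted p = 0.017). *Gr9a*, the most bound *Gr* gene, lies inside *CG15312*. Over its whole window it read 0.69, 1.05 and 1.36 in the sugar samples, against 0.95, 1.05 and 0.85 in the control samples, which overlap widely (difference 0.08, SE 0.17, adjusted p = 0.720). Upstream, however, it read 1.40, 2.04 and 2.04 in the sugar samples, against 0.40, 0.68 and 0.89 in the control samples (difference 1.18, SE 0.23, adjusted p = 0.012), and downstream 0.17, 0.51 and 1.07 in the sugar samples, against 2.00, 1.87 and 1.23 in the control samples, with no test. *Gr98a* likewise was higher upstream (0.56, adjusted p = 0.029) and lower over its span (-0.34, adjusted p = 0.010) and downstream (-0.60, adjusted p = 0.009).

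*Gr23a*, a further gene with high control binding, read 0.12, 0.42 and 0.57 in the sugar samples, against 0.66, 0.90 and 0.51 in the control samples (difference -0.32, SE 0.15, adjusted p = 0.138). Its upstream part alone fell by 1.05 (SE 0.20, adjusted p = 0.012). *Gr33a* upstream averaged 0.75 ± 0.39 on the sugar diet and 1.55 ± 0.26 on the control diet (SD, n = 3 each, adjusted p = 0.044). Among the parts tested the largest fall was downstream of *Gr39a*, at -1.07, -1.03 and -1.09 in the sugar samples, against 0.71, 0.80 and 0.15 in the control samples (difference -1.62, SE 0.18, adjusted p = 0.003).

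*Gr28a* and *Gr28b* are neighbours expressed in taste neurons and in other cells, where *Gr28b* serves warmth and light sensing and *Gr28a* serves larval taste for ribonucleosides. *Gr28a* fell on sugar, with 0.15, 0.16 and 0.14 in the sugar samples, against 0.50, 0.27 and 0.35 in the control samples (difference -0.22, SE 0.07, adjusted p = 0.039). The call was lost without any single sample other than control replicate 2 (adjusted p = 0.063 to 0.094), and after GC correction *Gr28a* differed by 0.09 (adjusted p = 0.358). *Gr28b* read 0.28, 0.17 and 0.18 in the sugar samples, against 0.36, 0.28 and 0.33 in the control samples (difference -0.11, SE 0.05, adjusted p = 0.110). Their windows overlap, so part of the signal is shared.

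*Gr10a*, beside the common peak, did not pass the test, with 0.45, 0.47 and 0.45 in the sugar samples, against 0.50, 0.55 and 0.49 in the control samples (difference -0.05, SE 0.04, adjusted p = 0.282). Its upstream part, which holds the peak, averaged 1.87 ± 0.29 on the sugar diet and 1.67 ± 0.15 on the control diet (SD, n = 3 each, adjusted p = 0.38). *Gr68a*, a receptor of male foreleg neurons used in courtship, rose by 0.41 (SE 0.12, adjusted p = 0.035). It read 0.16, 0.54 and 0.12 in the sugar samples, against -0.13, -0.14 and -0.14 in the control samples, so replicate 2 stood above the other sugar samples. Without any 1 control sample its call was lost (adjusted p = 0.084 to 0.096). *Gr94a*, whose span overlaps *p53*, rose by 0.44 (SE 0.11, adjusted p = 0.023), with 0.14, -0.22 and 0.14 in the sugar samples, against -0.37, -0.43 and -0.47 in the control samples. Its call was kept without sugar replicate 2 (adjusted p = 0.007) and lost without any other sample (adjusted p = 0.054 to 0.071). After GC correction it differed by 0.15 (adjusted p = 0.309).

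The largest falls were at *Gr98d*, *Gr39b*, *Gr36a*, *Gr98c* and *Gr39a*. *Gr98d* read -0.60, -0.59 and -0.69 in the sugar samples, against 0.30, 0.22 and 0.04 in the control samples (difference -0.82, SE 0.08, adjusted p = 0.002). *Gr39b* read -0.36, -0.18 and -0.35 in the sugar samples, against 0.44, 0.42 and 0.17 in the control samples (difference -0.64, SE 0.10, adjusted p = 0.005). *Gr36a* read -0.46, -0.44 and -0.47 in the sugar samples, against 0.26, 0.16 and 0.07 in the control samples (difference -0.62, SE 0.06, adjusted p = 0.002). *Gr98c* read -0.33, -0.24 and -0.39 in the sugar samples, against 0.31, 0.24 and 0.18 in the control samples (difference -0.57, SE 0.06, adjusted p = 0.002). All 4 were below 0 in every sugar sample and above 0 in every control sample, and their calls held without any single sample.

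Many *Gr* genes stand in small tandem groups with a shared number. The counts of calls in these groups stand beside 22.3% higher and 25.7% lower over all genes. All 3 *Gr36* genes were lower on sugar (-0.62, -0.26 and -0.43 at *Gr36a*, *Gr36b* and *Gr36c*), as were both *Gr39* genes, which are not adjacent, although with a correction for GC content described further on *Gr36a* alone of these 5 was still called lower, *Gr36b* was called higher and *Gr39b* differed by 0.06. Of 6 *Gr22* genes, 3 were lower (*Gr22a*, *Gr22b* and *Gr22c*, by -0.43, -0.37 and -0.19), 1 was higher (*Gr22d*, by 0.20) and 2 were not called. The *Gr22d* rise lay in its downstream part (0.81), while its span and upstream part differed by -0.09 and -0.07 without passing the test. With 5 kb flanks *Gr22d* was called lower (-0.14, limma adjusted p = 0.025). Of 6 *Gr59* genes, 3 were lower (*Gr59a*, *Gr59b* and *Gr59d*, by -0.28, -0.30 and -0.17), while *Gr59e*, whose control level was among the 3 lowest of the 51, differed by 0.30 without passing the test (SE 0.12, adjusted p = 0.097). Of 4 *Gr93* genes, *Gr93c* and *Gr93d* were lower (-0.30 and -0.40), and of 4 *Gr98* genes *Gr98c* and *Gr98d* were lower. With the same correction the calls at *Gr22a*, *Gr22b*, *Gr22c*, *Gr59a*, *Gr59b* and *Gr93c* were lost, and *Gr22c* differed by 0.10. None of the 3 *Gr58* or 2 *Gr47* genes passed the test, including *Gr47b*, which was low on both diets (-0.28 ± 0.10 on sugar and -0.46 ± 0.11 on control, SD, n = 3 each).

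Neighbours are not independent: 26 of the 51 genes stand in 20 pairs with overlapping windows. Even so, genes of one numbered group differed in their values. Opposite calls within the overlapping pairs were found at *Gr22b* and *Gr22d* and at *Gr22c* and *Gr22d*. *Gr22a* and *Gr22d*, whose windows do not overlap, also had opposite calls, while *Gr93a* and *Gr98b* were not called. *Gr22a* minus *Gr22d* averaged -0.12 ± 0.16 on the sugar diet and 0.51 ± 0.13 on the control diet, *Gr93d* minus *Gr93a* averaged -0.50 ± 0.21 on sugar and 0.17 ± 0.17 on control, and *Gr98d* minus *Gr98b* averaged -0.67 ± 0.11 on sugar and 0.13 ± 0.20 on control (SD, n = 3 each). Each gap differed between the diets without overlap, with an exact permutation p of 0.1, the smallest possible. *Gr39a* minus *Gr66a* averaged 0.09 ± 0.09 on sugar and 0.45 ± 0.20 on control, with the same p. These pairs were chosen with the genes' values known, so the lack of overlap is a description only. A total of 11 spans also overlap a gene outside the family, and at these the signal cannot be assigned to either gene. Among them are *Gr8a* (with *CG12121*), *Gr32a* (with *CG6230*), *Gr39a* (with *Mondo*) and *Gr68a* (with *loaf*).

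**Figure D4:**
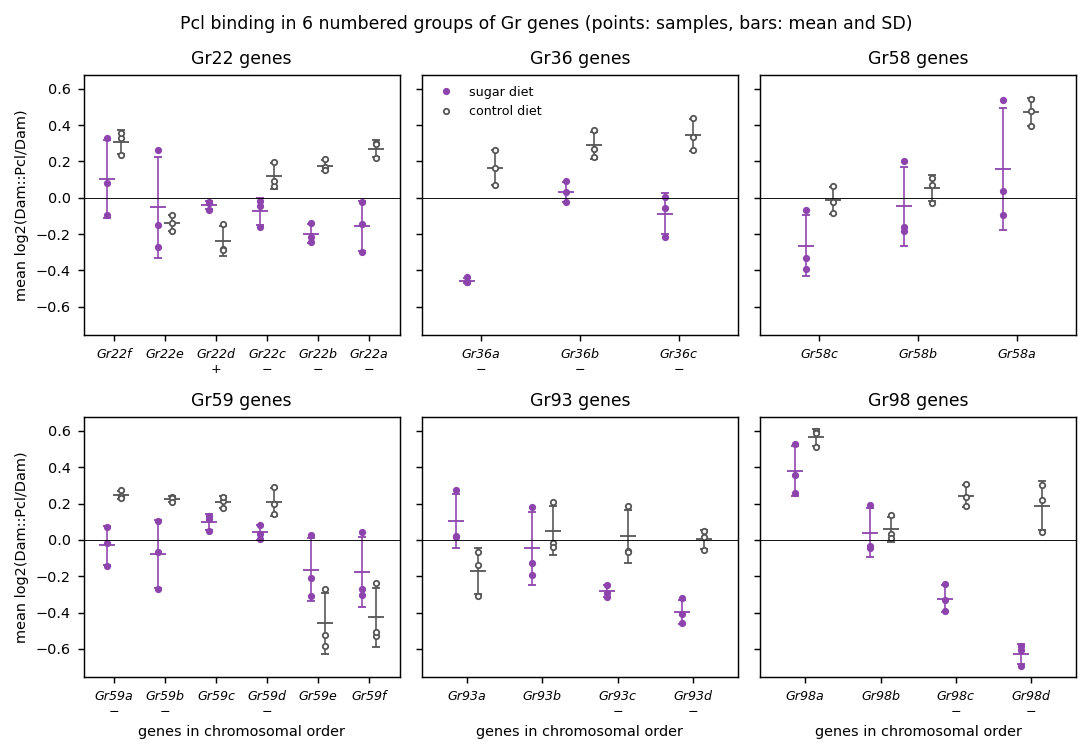
Mean log2(*Dam::Pcl/Dam*) (y axis) of the *Gr22*, *Gr36*, *Gr58*, *Gr59*, *Gr93* and *Gr98* genes in chromosomal order (x axis), with the 3 sugar samples filled and left of the 3 open control samples, and bars for the mean and SD. Plus and minus signs mark genes higher and lower on sugar, and all 3 *Gr36* genes have their sugar samples below their control samples, as *Gr22a* to *Gr22c* do and *Gr22d* does not.

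GC content moved with these differences. Across the 51 windows the difference correlated with GC content at r = 0.73, a description over windows that share the same 6 samples, and over all genes r was 0.67. The slope was 0.78 per 10% of GC for the *Gr* genes and 0.79 for all genes. Of the 17 *Gr* genes with the lowest GC content (36.1% to 41.3%), 1 was higher on sugar and 13 were lower, while 1.89% of all genes in that GC range were higher and 54.8% lower. Of the middle 17, 2 were higher and 5 lower (7.43% and 23.3% of all genes in that range). Of the 17 with the highest GC content (43.4% to 49.8%), 4 were higher and 1 lower (36.2% and 8.13% of all genes in that range).

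With the GC trend of all genes subtracted, 15 *Gr* genes passed the test, against 33.2% of all genes, 8 of them higher (14.6% of all genes) and 7 lower (18.7%), and the median difference was -0.03. Called in the same direction with and without the correction were 4 higher genes (*Gr21a*, *Gr22d*, *Gr68a* and *Gr89a*) and 5 lower ones (*Gr36a*, *Gr59d*, *Gr93d*, *Gr98c* and *Gr98d*). *Gr21a* differed by 0.66 after it (adjusted p = 0.003), *Gr98d* by -0.32 (adjusted p = 0.014) and *Gr98c* by -0.31 (adjusted p = 0.011). *Gr36b* was lower before and higher after the correction (0.21, adjusted p = 0.049). The direction also turned, with the call lost, at *Gr2a* (-0.18), *Gr22c* (0.10), *Gr28a* (0.09) and *Gr92a* (0.03). It turned in the same way at *Gr39b* (0.06, adjusted p = 0.510) and *Gr33a* (0.04, adjusted p = 0.793). A total of 16 calls were lost, all of those included, and with them *Gr39a* (-0.03, adjusted p = 0.709) and *Gr8a* (0.23, adjusted p = 0.091). New calls were *Gr58c*, *Gr77a* and *Gr93a* (higher) and *Gr59c* and *Gr66a* (lower), the last at -0.28 (adjusted p = 0.046). The part of GC content in the diet differences was not tested.

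**Figure D5:**
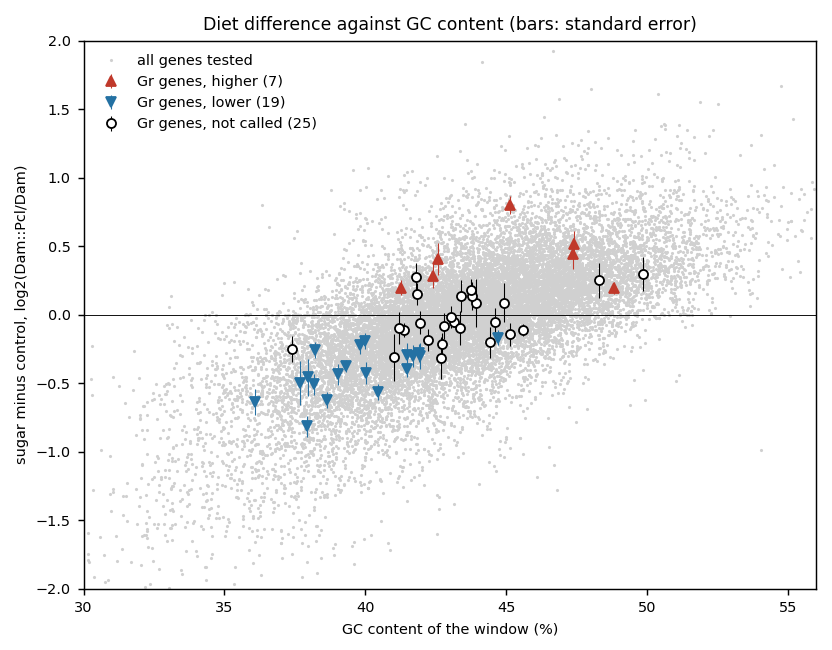
Diet difference in log2(*Dam::Pcl/Dam*), sugar minus control (y axis), against the GC content of the window (x axis, %) for all genes (grey) and the 51 *Gr* genes with standard errors, 7 higher (up triangles), 19 lower (down triangles) and 25 not called (open circles). The *Gr* genes follow the slope of all genes, and *Gr21a* stands above genes of like GC content; genes beyond the axes are not drawn.

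Other chemoreceptor families had similar shares of calls, and no test of a difference between families was made. Of 60 odorant receptor genes 9 were higher and 19 lower, with a median difference of -0.13, and of 66 ionotropic receptor genes 11 were higher and 20 lower, with a median of -0.08. Their median GC contents were 41.9% and 43.6%, against 42.0% for the 51 *Gr* genes and 43.3% for all genes. Of the 9 sugar receptor genes left out by the rule, 3 were higher and 1 lower (44.4% called), with a median difference of 0.11 and a median GC content of 46.3%. *Gr64b* and *Gr64c*, both higher, have the same annotated span and so the same values. *Gr64d* and *Gr64e* share most of their windows and each differed by 0.11. Among 15 signalling proteins, channels and coreceptors of taste neurons, 26.7% were called. Of the 15, 1 was higher (*Ir76b*, a coreceptor of salt and amino acid taste, by 0.18) and 3 were lower. These were *Galphaq*, the G protein subunit of phospholipase signalling (-0.92), *norpA*, the phospholipase C (-0.22), and *Ir60b*, a receptor that limits sugar intake (-0.32). With the GC correction the calls at *Ir76b* (-0.02, adjusted p = 0.813) and *norpA* (0.07, adjusted p = 0.427) were lost and both changed sign, while *Galphaq* (-0.37, adjusted p = 0.013) and *Ir60b* (-0.67, adjusted p = 0.007) were still called lower.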

How the data were processed

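Genomic DNA of pooled heads was cut with DpnI and DpnII, and sequenced on a NextSeq. Per the methods, the authors mapped reads that passed a quality filter to dm6 with Bowtie2 and ran damidseq_pipeline, which extends reads to a set length or the next GATC site. The deposited values are log2 ratios of Dam::Pcl to Dam per GATC fragment. The normalization option and pseudocount are not given in the sources used here, nor is which Dam-only library each ratio used. Table columns without a sample numbered 0.

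A gene's value was the length-weighted mean over its span with 1 kb on each side, for 18119 of 18164 genes with at least 2 fragments. Diets were compared with limma 3.58.1 (R 4.3.3, lmFit and eBayes) over all genes, with Benjamini-Hochberg adjustment and a threshold of 0.05, since DiffBind needs reads. Differences are sugar minus control. Gene pairs were compared by exact two-sided permutation tests. Peaks were called per sample by the find_peaks procedure (quantiles 0.95 to 0.99, at least 2 consecutive fragments, 100 shuffles, FDR 0.01), and common peaks were those in all 3 replicates of a diet. Tested on simulated data, limma recovered 171 of 200 genes given a log2 difference of 1, with 11 false calls. The *Gr* gene windows differed by less (-0.82 to 0.80), and recovery at such smaller differences was not tested.

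The members and lists were chosen with earlier results of these data known. By rule, the text names the core bitter, carbon dioxide and *Gr28* receptors, the 3 highest and 3 lowest genes on the control diet, the 5 largest rises and falls among called genes, genes at a common peak, and *Ubx* and *Abd-B*. All other genes named were chosen after their values were seen. Alternatives covered scaling, GC content, windows, fragment filters, moderation, thresholds, the replicate block and each replicate left out. The upstream and downstream windows were added after seeing the data.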

Additional observations from a re-analysis of the deposited data

How the results depend on the processing

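Scaling, moderation and fragment filters left the count of called *Gr* genes within 1.5 times 26. It was 15 with the GC correction, 17 for the 1 kb downstream alone (added after seeing the data), 11 at an adjusted p under 0.01 (25.5% of all genes) and 0 for a minimum fold of 1.5 (limma treat, which called 1.34% of all genes, with 2 *Gr* genes at an unadjusted p under 0.05), and it ran from 14 to 24 with 1 replicate left out. The median difference of -0.14 became -0.70 in units of the median absolute deviation, -0.035 with the GC correction, -0.074 over the gene span alone, -0.081 within 1 kb of the start and -0.24 downstream, and ran from -0.17 to -0.12 with 1 replicate left out. The 1 gene at a common peak became 0 with no flank, and stayed 1 to 1 with 1 replicate left out. Among genes named by rule and called with or without the alternative, directions turned at *Gr33a* (0.042), *Gr28a* (0.092) and *Gr39b* (0.060) with the GC correction, with and without the replicate block (as at *Gr2a*, *Gr22c*, *Gr36b* and *Gr92a*, outside that rule, with the GC correction), at *Gr89a* (-0.44) and *Gr21a* (-0.050) downstream, and at *Gr63a* within 1 kb of the start (0.50), with 5 kb flanks (0.27) and upstream (0.77). The cause was not tested.

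Deviations from the diet means correlated at r = -0.30, 0.21 and -0.21 between samples with the same replicate number. These 3 values cannot settle whether the numbers pair the samples. With the replicate block 15 *Gr* genes were called (35.0% of all genes), and 6 with the GC correction and the replicate block together (21.7% of all genes), where the median difference was -0.035. Depth is unknown, and 3 samples a diet limit the precision.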
